A study of Mus musculus with 12 samples.

Results

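The deletion of *Nr2f1* in the newborn visual thalamus was described through the functional classes of the genes that changed. The libraries were chosen by the labels alone: the 3 pools of *Nr2f1* mutants and the 3 pools of their controls, 6 of the 12 samples in the series. Every pool held dorsal lateral geniculate nuclei (dLGN) from 3 mouse pups at postnatal day 0 (P0), and RNA was sequenced from polyadenylated transcripts. Mutants were *Nr2f1* flox/flox and carried the *Ror-alphaCre* allele. In that allele an IRES-Cre is knocked into the 3' end of *Rora*, the gene of a nuclear receptor of thalamic neurons. The controls were littermates that had no Cre and, by the study's methods, *Nr2f1* flox/flox or flox/+, although their labels also name the Cre allele beside the words no Cre. Only the mutants therefore have a modified *Rora* allele, and the effects of Cre, of that allele and of losing *Nr2f1* cannot be told apart here. Pools are the unit of replication, so differences between single pups are not seen.

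NR2F1 (COUP-TFI) is a nuclear receptor with no established physiological ligand, which activates or represses transcription from DNA. It is known for setting the identity of areas in the developing cortex, and mutations in the human gene cause an optic atrophy syndrome with intellectual disability. The dLGN is the relay between retina and primary visual cortex. At birth its excitatory relay neurons have already sent axons to the cortex, and retinal axons are sorting into eye-specific territories within it.

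Of 24480 genes in the table, 15600 passed the filter on low counts and were tested, and 396 were differentially expressed genes (DEG) at an FDR below 0.01, by the quasi-likelihood F-test of edgeR. The background against which each class is read is thus 1.32% of tested genes called down, 1.22% called up and 2.54% called in either direction, with a median log2 fold change over all tested genes of 0.01. Levels are CPM (counts scaled to the total of the library) after TMM normalization, given in the order of control pools B, D and E and mutant pools A, B and C, and log2 fold changes are mutant minus control with their standard error (SE). The 58 gene lists described here held 3135 of the tested genes and 188 of the DEG, 105 of them downregulated and 83 upregulated. In 9 of the lists no member was called. With or without a call, the 3 mutant pools lay wholly above or wholly below the 3 controls in 28.6% of tested genes.

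Total counts per library lay between 39293465 and 50095344. The first principal component, which held 43.8% of the variance, placed mutant pool B at 3.8, between the controls (-24.9 to -15.4) and mutant pools A (29.5) and C (30.3). Summed levels of 14 markers of meningeal fibroblasts and arachnoid were 744 to 1147 CPM in the controls, 1092 in mutant pool B, and 2088 and 2546 in mutant pools A and C. The pools also differed in sex, since male-specific transcripts were listed at 0 in mutant pool A and *Xist* was at 0.283 CPM in control pool E. All 206 downregulated DEG lay below the mean of the controls in mutant pool B and all 190 upregulated DEG above it. Pool B was among the libraries that gave these calls, so the selection of DEG favours this agreement and it is no separate check. There the median log2 ratio to the controls was -0.49 over the downregulated DEG and 0.66 over the upregulated DEG. The same medians were -0.66 and 0.80 in mutant pool A and -0.65 and 0.77 in mutant pool C. When any 1 of the 6 libraries was left out, 53 downregulated and 59 upregulated DEG were called each time, and 28 and 40 were called in all 14 other settings that were tried.

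**Figure D1:**
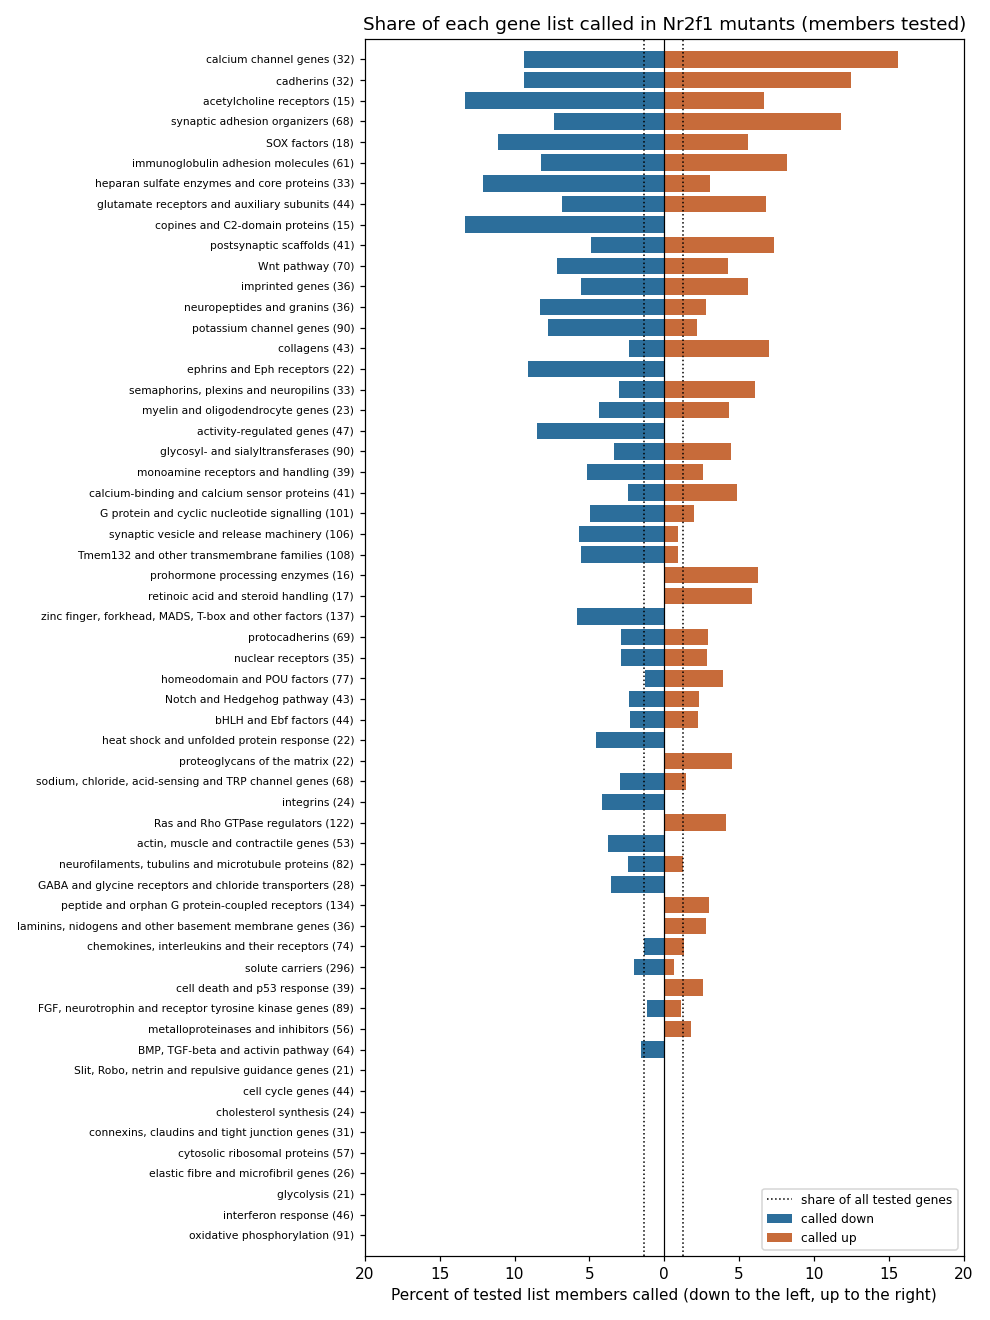
Percent of the tested members of each of the 58 gene lists that were called down (bars to the left) or up (bars to the right) in *Nr2f1* mutants, with the number of members tested in parentheses and dotted lines at the shares among all tested genes (1.32% and 1.22%). Calcium channel genes, cadherins and acetylcholine receptors had the largest shares called, whereas 9 lists, among them oxidative phosphorylation and cytosolic ribosomal proteins, had no call.

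The classes with the largest shares of DEG held channels, receptors, adhesion molecules and 1 family of transcription factors. Among calcium channel genes 25% of the tested members were called, among cadherins 21.9%, among acetylcholine receptors 20%, among synaptic adhesion organizers 19.1%, among SOX factors 16.7%, and among immunoglobulin adhesion molecules 16.4%. In each of these classes DEG went in both directions. The list medians, taken over all tested members and so mostly over genes without a call, lay between -0.09 for the synaptic organizers and 0.15 for acetylcholine receptors. Housekeeping classes held no calls. No gene was called by edgeR among 91 genes of oxidative phosphorylation, 57 cytosolic ribosomal proteins, 44 cell cycle genes, 24 genes of cholesterol synthesis and 21 of glycolysis, where list medians lay between -0.04 and 0.12. Of these 237 genes 5 were lower and 14 higher at an unadjusted p below 0.05, and DESeq2 called 1 down and 0 up. The member nearest to a call was *Slc2a3*, a neuronal glucose transporter (64.2, 58.4 and 73.3 CPM in controls, 49.1, 52.1 and 53 in mutants, log2 fold change -0.35 ± 0.08 SE, FDR = 0.035), followed by *Cox6a2* (FDR = 0.041).

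The targeted gene was measured at 311, 370 and 380 CPM in the controls and 105, 151 and 101 CPM in the mutants. Mutant pool B thus kept the most *Nr2f1* transcript, and the groups did not overlap (log2 fold change -1.57 ± 0.14 SE, FDR = 0.00035). In a bulk sample, fewer cells that express a gene and less RNA per cell cannot be told apart, here and in all results that follow. *Rora* stood at 382, 344 and 413 CPM in controls and 363, 333 and 261 in mutants, overlapping groups with a log2 fold change of -0.25 ± 0.11 (SE, FDR = 0.20). Besides *Nr2f1*, the only one of 35 nuclear receptor genes that was called was *Rxrg*, whose product is a retinoid X receptor. It rose from 16.0, 16.8 and 15.9 CPM to 24.1, 23.4 and 25.6 CPM (log2 fold change 0.58 ± 0.07 SE, FDR = 0.0020). The closest relative, *Nr2f2*, overlapped between the groups (44.9, 52.5 and 47.1 CPM against 56.8, 50.3 and 73.7 CPM, FDR = 0.15).

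The tissue was checked against 13 markers of thalamic relay neurons, which summed to 2923 to 3163 CPM in the controls and 2686 to 3137 CPM in the mutants. The vesicular glutamate transporter *Slc17a6*, which marks thalamic excitatory neurons, overlapped between the groups (265, 214 and 261 CPM against 258, 252 and 208 CPM, FDR = 0.84). Of the 13, edgeR called *Slc6a4* down and *Lhx2* and *Cacna1g* up. With or without a call, 8 were lower and 5 higher, 6 and 5 of them at an unadjusted p below 0.05. DESeq2 called 3 down and 5 up. The sum thus joins markers that moved in opposite directions. General neuronal markers, 9 genes, summed to 8308 to 8502 CPM in controls and 7477 to 8181 CPM in mutants. Of these 7 were lower, 4 of them at an unadjusted p below 0.05, with 0 called by edgeR and 1 called down by DESeq2. All 10 astrocyte and radial glia markers had a log2 fold change above 0, with sums of 1744 to 1841 CPM in controls and 1931 to 2146 CPM in mutants, and *Aqp4*, the water channel of astrocyte endfeet, rose (215, 198 and 216 CPM to 259, 262 and 300 CPM, FDR = 0.0085). Microglial markers summed to 132 to 154 CPM in controls and 168 to 206 CPM in mutants, with 11 of 12 above 0 and 0 called by edgeR, although 7 were higher at an unadjusted p below 0.05 and DESeq2 called 5. Markers of GABAergic neurons had a log2 fold change above 0 in 9 of 9 genes (median 0.52), and those of midbrain-derived thalamic interneurons in 8 of 9 (median 0.49). The former summed to 391.5 to 426.5 CPM in controls and to 463.6, 396.2 and 527.5 CPM in mutant pools A, B and C, and the latter to 89.7 to 103 CPM in controls and to 135, 97.8 and 163 CPM in the mutants, so that mutant pool B lay within the range of the controls for both. None of these 18 genes was called by edgeR, while 4 and 5 were higher at an unadjusted p below 0.05 and DESeq2 called 0 and 1. The parts of these shifts in the results on neuronal genes were not tested.

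**Figure D2:**
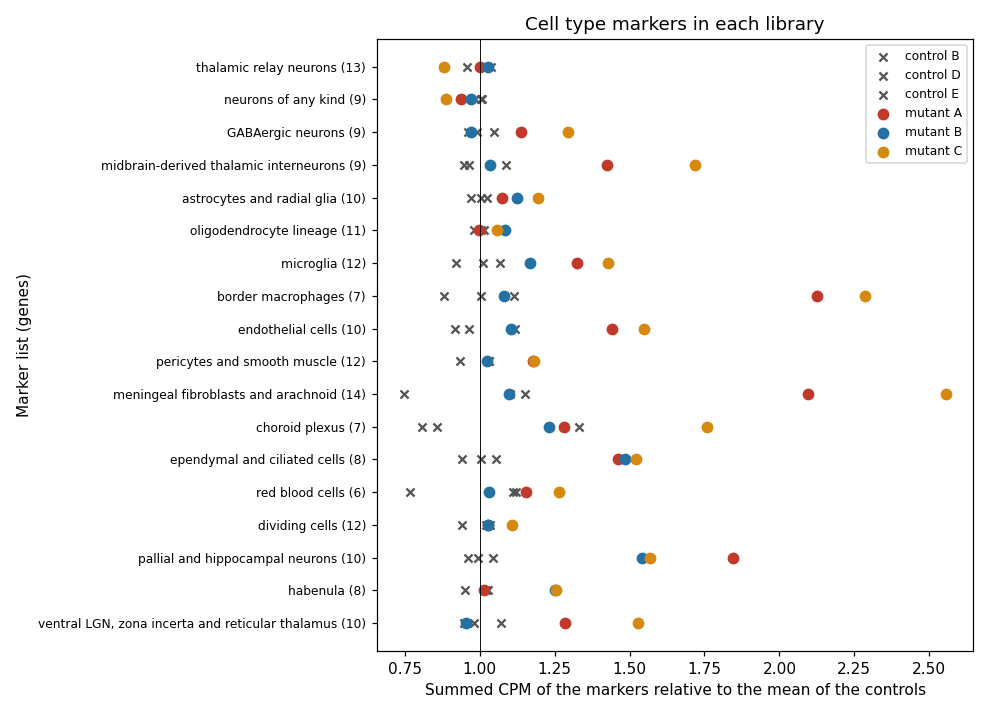
Summed CPM of 18 lists of cell type markers in each library, divided by the mean of the 3 controls (crosses, controls; red, blue and orange points, mutant pools A, B and C). Meningeal, border macrophage and endothelial markers were high in mutant pools A and C, whereas mutant pool B lay close to or within the range of the controls for these.

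Transcription factors changed in both directions. Among 137 zinc finger, forkhead, MADS-box and other factors 8 were downregulated and 0 upregulated, with a list median of 0.07. At an unadjusted p below 0.05, 25 of them were higher, DESeq2 called 4 up, and with 1 library left out 0 to 9 were called up. *Dmrtb1*, a DM-domain gene, and *Mef2c*, a MADS-box factor of neuronal differentiation, were called under every setting. *Mef2c* was at 96.1, 88.7 and 103 CPM in controls and 43.8, 56.0 and 46.0 CPM in mutants, with pool B the highest of the mutants (log2 fold change -0.98 ± 0.09 SE, FDR = 0.00044). It lies 5.31 Mb from *Nr2f1* on chromosome 13, the chromosome with the floxed alleles, and the part of linked sequence in its level was not tested. *Tox3* (-0.73 ± 0.08 SE), *Foxp1* (-0.47 ± 0.06 SE), *Hr* (-1.42 ± 0.20 SE) and *Smyd1*, a muscle-type chromatin factor (-1.15 ± 0.16 SE), fell as well on the log2 scale. *Klf6* and *Zic1*, both past the naming rule and chosen after their values were seen, complete the 8.

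Homeodomain and POU factors had 3 upregulated and 1 downregulated gene among 77, and a list median of 0.17. *Prox1*, a homeobox gene of several neuronal lineages, was at 53.5, 49.7 and 69.0 CPM in controls and at 144, 120 and 105 CPM in mutants. Its groups were well apart (log2 fold change 1.10 ± 0.14 SE, FDR = 0.0018). *Lhx2* (0.46 ± 0.06 SE), a LIM-homeobox gene of the thalamus, and *Pou3f3* (0.53 ± 0.08 SE) also rose. *Pax2* fell at a low level, from 2.93, 3.75 and 3.91 CPM to 1.38, 1.67 and 1.53 CPM. Of 18 SOX genes 2 fell and 1 rose. *Sox13* was lower in every mutant pool by a similar amount (186, 190 and 181 CPM against 110, 117 and 107 CPM). *Sox18*, a gene of endothelial cells, rose from 11.9, 13 and 11.4 CPM to 19.1, 16.3 and 19.9 CPM. The sum of 10 endothelial markers was 302 to 367 CPM in controls and 474, 363 and 510 CPM in mutant pools A, B and C. In pool B this sum lay within the range of the controls, whereas *Sox18* lay above all of them. The part of endothelial content in *Sox18* was not tested. Among 44 bHLH and Ebf genes, *Ebf1* rose and *Id2*, an inhibitor of bHLH factors, fell from 66.5, 75.1 and 70.5 CPM to 41.5, 49.5 and 45.9 CPM (FDR = 0.0016).

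Axon guidance genes held few DEG in number, but not always in share. Of ephrins and Eph receptors 9.09% were called, and of semaphorins, plexins and neuropilins 9.09%, against 2.54% of all tested genes. Ephrins and Eph receptors had 2 downregulated genes and 0 upregulated among 22 (0 to 2 upregulated with 1 library left out). These were *Epha7* and *Epha4*, receptors that help to set topographic order in sensory pathways. *Epha4* was at 271, 233 and 262 CPM in controls and at 106, 144 and 99.7 CPM in mutants, with the highest mutant value in pool B (log2 fold change -1.13 ± 0.12 SE, FDR = 0.00088). The list as a whole had a median of 0.20, and 9 of its genes had a higher level at an unadjusted p below 0.05, of which DESeq2 called 4 up. Among semaphorins, plexins and neuropilins 1 gene fell and 2 rose among 33. *Plxna2*, a semaphorin receptor, rose from 28.4, 28.1 and 25.9 CPM to 45.4, 34.9 and 46.9 CPM (FDR = 0.0085) and lost its call without 5 of the 6 libraries. Among 21 genes of the Slit, Robo, netrin and repulsive guidance families edgeR called none, against 5 lower and 7 higher at an unadjusted p below 0.05 and 3 down and 1 up with DESeq2. The nearest was *Ntng1*, a netrin-G of thalamic axons (382, 365 and 413 CPM against 276, 318 and 240 CPM, FDR = 0.016).

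Cell adhesion genes changed member by member. Cadherins had 3 downregulated and 4 upregulated genes among 32 (1 to 4 and 2 to 6 with 1 library left out). Downregulated were *Clstn2*, a calsyntenin of synaptic membranes (87.0, 84.8 and 90.7 CPM to 58.6, 57.7 and 55.7 CPM), *Cdh8* and *Cdh7*. Upregulated were *Cdh13*, *Celsr1*, *Cdh6* and *Cdh24*. *Cdh13*, a cadherin without a transmembrane segment, stood at 39.9, 45.4 and 41.2 CPM in controls and at 92.4, 78.6 and 96.0 CPM in mutants (log2 fold change 1.08 ± 0.08 SE, FDR = 0.00017). The type II cadherins thus split, since *Cdh7* (-0.94 ± 0.16 SE) fell and *Cdh6* (0.63 ± 0.10 SE) rose on the log2 scale.

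The immunoglobulin adhesion molecules had 5 genes called in each direction among 61 (0 to 8 down and 2 to 9 up with 1 library left out). *Cntnap5a*, *Nrcam*, *Nectin3*, *Cadm2* and *Lingo1* fell, whereas *Igsf9*, *Nfasc*, *Kirrel3*, *Cntn4* and *Sdk2* rose. *Igsf9*, which encodes a dendritic adhesion molecule, went from 22.9, 21.2 and 19.1 CPM to 47.6, 45 and 49.6 CPM (log2 fold change 1.17 ± 0.08 SE, FDR = 0.00011). *Nrcam* and *Nfasc*, related molecules of axon initial segments and nodes, moved in opposite directions, at -0.38 ± 0.05 and 0.55 ± 0.06 (log2 fold change ± SE). Of 69 protocadherins, *Pcdhac1* (-1.09 ± 0.13 SE) and *Pcdhac2* (-0.65 ± 0.08 SE) fell and *Pcdh11x* (0.68 ± 0.07 SE) and *Pcdh17* (0.73 ± 0.09 SE) rose. *Pcdhac1* and *Pcdhac2* share their last exons with the other alpha protocadherins, so how reads were split among them by the authors' estimation is uncertain. *Itga9*, an integrin subunit, was the 1 gene called among 24 integrins and fell from 30.4, 29.3 and 29.4 CPM to 11.2, 16.0 and 11.3 CPM.

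Genes that organize synapses across the cleft held 13 DEG. In this class 5 of 68 fell and 8 rose (2 to 6 and 4 to 9 with 1 library left out). The adhesion receptors of the latrophilin group *Adgrl2* and *Adgrl3*, the presynaptic *Nrxn3*, the delta glutamate receptor *Grid1* and the secreted *Cbln1* fell. *Adgrl2* was at 262, 276 and 256 CPM in controls and at 172, 180 and 181 CPM in mutants (log2 fold change -0.58 ± 0.05 SE, FDR = 0.00025). *Syndig1*, a regulator of AMPA receptor synapses, rose from 3.64, 4.58 and 3.89 CPM to 13.1, 10.4 and 13.3 CPM (log2 fold change 1.60 ± 0.14 SE, FDR = 0.00029). The cerebellins, ligands that bridge neurexins and delta receptors, diverged. *Cbln1* fell from 23.5, 23.9 and 22.1 CPM to 13.2, 13.8 and 17.5 CPM, and *Cbln4* rose from 21.7, 22.6 and 24.9 CPM to 40.4, 39.0 and 45.3 CPM, without overlap in either case. *Mdga1* (0.60 ± 0.07 SE), *Nptx1* (0.76 ± 0.09 SE) and *Lrrtm4* (0.99 ± 0.14 SE) rose too on the log2 scale, as did *Elfn1*, *Flrt2* and *Tenm1*, which were named after their values were seen.

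In the list of presynaptic genes DEG were mostly downregulated. Among 106 genes of synaptic vesicles and release, 6 fell and 1 rose (2 to 9 and 0 to 4 with 1 library left out). *Stxbp2*, a Munc18 protein, went from 32.4, 35.8 and 31.9 CPM to 18.1, 20.9 and 18.9 CPM (log2 fold change -0.79 ± 0.08 SE, FDR = 0.00061). *Bsn*, the active zone scaffold bassoon, went from 512, 503 and 514 CPM to 415, 403 and 380 CPM, a small and even change (-0.35 ± 0.05 SE). The priming factor *Unc13b*, the vesicle protein *Sv2b* and, named after its value was seen, *Cadps*, an activator of dense-core vesicle release, fell as well. *Syn2*, a synapsin, rose (73.5, 65.6 and 72.0 CPM to 86.4, 97.9 and 102 CPM, FDR = 0.0070). Among 15 copines and other C2-domain genes *Cpne4* and *Cpne8* fell, and *Cpne4* was at 75.4, 74.0 and 75.6 CPM in controls and 20.6, 27.9 and 18.0 CPM in mutants (log2 fold change -1.76 ± 0.13 SE, FDR = 0.00017).

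Postsynaptic genes went both ways, with 2 downregulated and 3 upregulated among the 41 genes of a list made mainly of scaffolds and kinases. *Homer2*, which links metabotropic glutamate receptors to calcium stores, fell from 99.2, 94.0 and 86.1 CPM to 48.8, 54.2 and 47.5 CPM under every setting (log2 fold change -0.89 ± 0.07 SE, FDR = 0.00019). The kinase genes diverged, as *Camk4* fell (549, 511 and 536 CPM to 373, 385 and 307 CPM) and *Camk2a* rose (144, 153 and 151 CPM to 208, 197 and 183 CPM). *Baiap3* (1.12 ± 0.12 SE) and *Dlgap2* (1.16 ± 0.17 SE) rose from less than 10 CPM. Of these *Baiap3*, although in this list, encodes a C2-domain protein related to the priming factor *Unc13b* and is neither a scaffold nor a kinase.

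**Figure D3:**
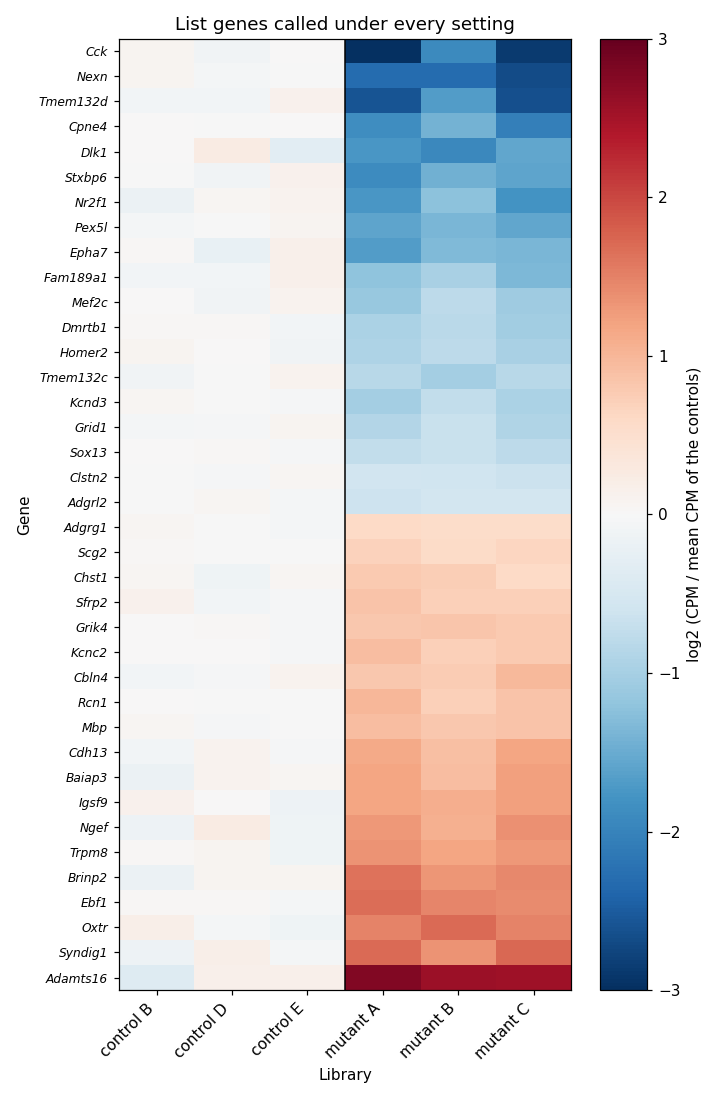
Log2 ratio of the CPM in each library to the mean CPM of the 3 controls (color scale from -3 to 3) for the 38 list genes that were called in the main test and in all 14 other settings, ordered by log2 fold change. The 3 mutant pools had the same color direction for every gene, which the selection by calls in these libraries favours. *Cck* was lowest and *Adamts16* highest, and mutant pool B was paler for several downregulated genes such as *Cck* and *Tmem132d*.

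Ionotropic glutamate receptor subunits moved both ways within families. Of 44 genes for glutamate receptors and their auxiliary subunits 3 fell and 3 rose. *Gria1* rose from 136, 117 and 148 CPM to 200, 193 and 181 CPM, while *Gria4* fell from 105, 99.9 and 106 CPM to 79.9, 82.3 and 68.3 CPM. Both encode AMPA receptor pores, and *Gria2* and *Gria3* were not called (log2 fold changes -0.16 ± 0.06 and -0.29 ± 0.09 SE, chosen for comparison after their values were seen). *Gsg1l*, an auxiliary subunit of AMPA receptors, fell from 198, 190 and 206 CPM to 117, 139 and 118 CPM (FDR = 0.00077). Kainate receptor genes split too, with *Grik4* rising from 13.4, 13.5 and 12.9 CPM to 23.3, 23.5 and 22.7 CPM (log2 fold change 0.81 ± 0.07 SE, FDR = 0.00035). *Grik1* fell from 64.6, 66.0 and 63.4 CPM to 34.3, 46.2 and 44.9 CPM. *Grm4*, a presynaptic metabotropic receptor, rose (0.54 ± 0.09 SE).

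Among 28 genes for GABA and glycine receptors and chloride transporters 1 was called. That gene was *Gabbr1*, the ligand-binding subunit of the GABA-B receptor, which fell from 902, 930 and 879 CPM to 683, 744 and 653 CPM (log2 fold change -0.38 ± 0.06 SE, FDR = 0.0050), and it kept its call without 1 of the 6 libraries only. Among 15 acetylcholine receptor genes 3 were called. *Chrna7* and *Chrna4*, nicotinic subunits, fell and *Chrm2*, a muscarinic receptor, rose. *Chrna7* was at 9.49, 7.03 and 10.6 CPM in controls and at 4.32, 4.85 and 4.07 CPM in mutants (log2 fold change -1.03 ± 0.16 SE, FDR = 0.0057). *Chrm2* was at 4.31, 2.93 and 3.28 CPM in controls and at 7.71, 6.96 and 7.08 CPM in mutants (1.05 ± 0.16 SE, FDR = 0.0044). *Ache*, the gene of acetylcholinesterase, which was in none of the lists and was named after its values were seen, fell from 148, 146 and 142 CPM to 100, 115 and 101 CPM. All 3 receptor calls were lost without at least 4 of the 6 libraries.

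Among 90 potassium channel genes 7 fell and 2 rose (2 to 10 and 1 to 2 with 1 library left out), and over all members, with or without a call, 48 were lower and 42 higher. Both subunits of the neuronal ATP-sensitive channel fell, the pore *Kcnj11* from 26.6, 23.2 and 25.8 CPM to 15.1, 16.2 and 13.5 CPM and the sulfonylurea receptor *Abcc8* from 31.4, 32.2 and 28.2 CPM to 11.2, 17.8 and 13.4 CPM. Their log2 fold changes were -0.75 ± 0.09 and -1.11 ± 0.15 (SE), whereas the sulfonylurea receptor of vascular cells, *Abcc9*, overlapped between groups (0.06 ± 0.08 SE, FDR = 0.73). The A-type channels moved in opposite directions. *Kcnd3* fell from 154, 148 and 144 CPM to 73.8, 89.2 and 77.1 CPM (log2 fold change -0.89 ± 0.07 SE, FDR = 0.00018), and *Kcnd2* rose from 72.1, 70.3 and 80.5 CPM to 96.6, 94.5 and 97.0 CPM (0.37 ± 0.06 SE, FDR = 0.0062). *Kcna1*, a delayed rectifier of axons, fell from 18.1, 20.9 and 11.7 CPM to 6.78, 8.82 and 6.67 CPM. *Kcnc2*, a fast Kv3 channel, rose from 17.9, 17.8 and 17.4 CPM to 33.7, 29 and 30.4 CPM (0.81 ± 0.08 SE, FDR = 0.00041). *Pex5l*, an accessory subunit gene of this list, fell under every setting. *Abcc8* and *Pex5l* were entered in the list by name, and the paper's table of genes most downregulated in *Nr2f1* mutants holds both. Their falls were thus known when the list was made. *Kcna4*, named after its values were seen, was downregulated as well.

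Calcium channel genes had the largest share of DEG of any list, with 3 of 32 down and 5 up (0 to 3 and 1 to 5 with 1 library left out). Changes were small for most. The low-voltage-activated T-type channels *Cacna1g* and *Cacna1i*, which give thalamic neurons their burst firing, rose from 333, 340 and 338 CPM to 418, 423 and 406 CPM and from 48.2, 43.9 and 47.8 CPM to 73.4, 63.4 and 61.8 CPM. *Cacna1h*, the other T-type gene, overlapped between groups (-0.07 ± 0.05 SE, FDR = 0.43). The L-type pores split, with *Cacna1d* up (0.31 ± 0.05 SE) and *Cacna1c* down (-0.34 ± 0.06 SE) on the log2 scale. Auxiliary subunits split as well, since *Cacna2d1* and *Cacna2d3* fell (-0.49 ± 0.07 and -0.63 ± 0.09 SE) and *Cacnb2* rose from 18.5, 18.3 and 18.8 CPM to 31.8, 28.6 and 29.4 CPM. The intracellular release channel *Ryr2* rose (0.45 ± 0.08 SE). *Cacnb2* was called without each library in turn, and the other 7 were not.

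**Figure D4:**
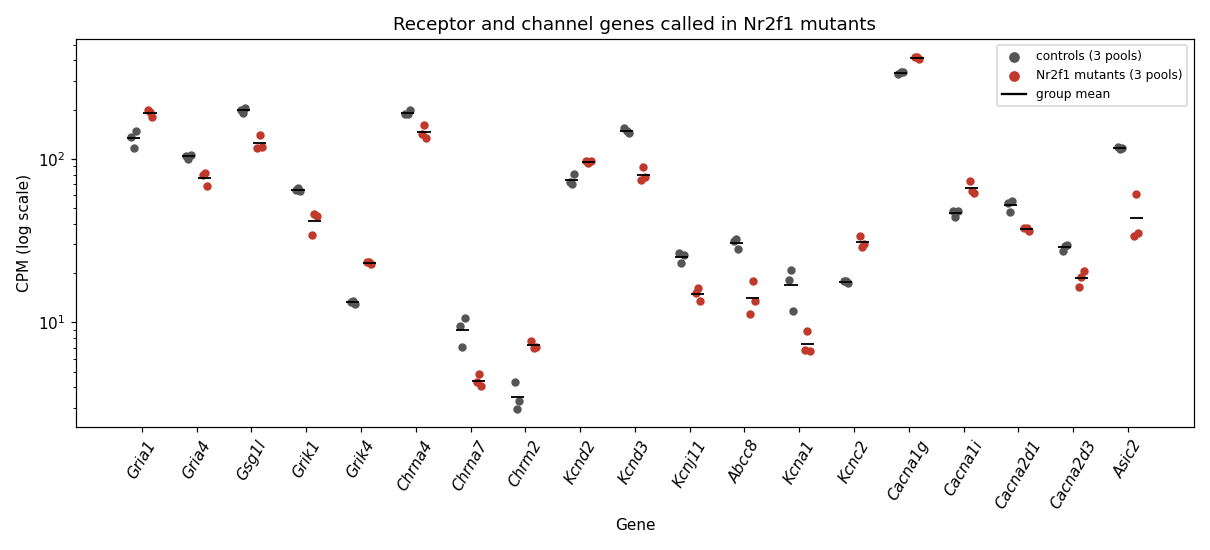
CPM of 19 receptor and channel genes that were called, on a log axis, in the 3 control pools (grey) and the 3 *Nr2f1* mutant pools (red), with the group means as black lines. In none of the 19, which were picked among the DEG, did the groups overlap (28.6% of all tested genes had no overlap). Members of 1 family moved apart, as *Gria1* and *Gria4*, *Grik1* and *Grik4*, and *Kcnd2* and *Kcnd3* show.

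Among 68 genes of sodium, chloride, acid-sensing and TRP channels 2 fell and 1 rose. *Asic2*, an acid-sensing channel, was at 118, 115 and 116 CPM in controls and 33.8, 60.6 and 35.4 CPM in mutants, with pool B the highest of the mutants (log2 fold change -1.43 ± 0.19 SE, FDR = 0.0022). *Trpm8*, known as the cold receptor of sensory neurons, rose from 3.50, 3.60 and 3.13 CPM to 8.63, 7.76 and 8.35 CPM under every setting (1.27 ± 0.12 SE, FDR = 0.00042).

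Neuropeptides and granins held the largest fall among the list genes. *Cck*, the precursor of cholecystokinin, was at 154, 134 and 146 CPM in controls and at 18.2, 38.7 and 19.9 CPM in mutants, where pool B had the highest level (log2 fold change -2.50 ± 0.24 SE, FDR = 0.00044). After division by transcript length *Cck* ranked 7 by control level among the downregulated DEG, against rank 64 without it. *Scg5* fell slightly (121, 123.2 and 125 CPM to 101, 104 and 101 CPM), and the secretogranin *Scg2* rose from 232, 225 and 227 CPM to 369, 341 and 355 CPM (0.64 ± 0.05 SE, FDR = 0.00015). Of 16 prohormone processing enzymes *Pam*, which amidates peptides, was called and rose (0.35 ± 0.06 SE). *Vgf* and *Nefm*, a neurofilament subunit, were other abundant downregulated genes. *Nefm* went from 606, 488 and 480 CPM to 195, 318 and 224 CPM (-1.09 ± 0.16 SE, FDR = 0.0041), whereas *Nefl* (-0.69 ± 0.14 SE, FDR = 0.016) and *Nefh* (-0.65 ± 0.12 SE, FDR = 0.014) did not pass.

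The monoamine class had 2 downregulated genes and 1 upregulated gene among 39. *Slc6a4*, the serotonin transporter, which sensory thalamic neurons express transiently around birth, was at 64.9, 59.2 and 32.5 CPM in controls and 9.94, 20.1 and 12.4 CPM in mutants. The groups were apart, although control pool E lay below the other controls (log2 fold change -1.88 ± 0.29 SE, FDR = 0.0051). The serotonin receptor *Htr7* fell (35.0, 33.6 and 35.7 CPM to 21.2, 26.0 and 23.1 CPM) and *Hdc*, the enzyme that makes histamine, rose (0.55 ± 0.09 SE). Among 134 peptide and orphan receptors 0 fell and 4 rose (0 to 3 down and 2 to 14 up with 1 library left out), while 13 were lower at an unadjusted p below 0.05 and DESeq2 called 6 down. *Oxtr*, the oxytocin receptor, went from 7.57, 6.52 and 6.15 CPM to 19, 21.8 and 19 CPM (1.56 ± 0.11 SE, FDR = 0.00011), and mutant pool B had the highest level. *Gpr139* (1.42 ± 0.20 SE), *Adgrg1* (0.56 ± 0.05 SE) and *Adgra1* (0.73 ± 0.11 SE) were the others.

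Genes regulated by neuronal activity had a list median near 0, but a share of downregulated DEG above that of all tested genes. Of 47, the 4 that fell (8.51%, against 1.32% of all tested genes) were *Vgf*, *Hr*, *Rasd1* and *Nfil3*. Among these, *Vgf*, *Hr* and *Rasd1* are in the paper's table of genes most downregulated in *Nr2f1* mutants, known when the list was made. By edgeR 0 rose, with a list median of -0.02 (8 higher at an unadjusted p below 0.05, 4 called up by DESeq2). *Rasd1*, a small G protein, was at 8.90, 6.25 and 5.28 CPM in controls and at 1.53, 2.92 and 2.00 CPM in mutants (log2 fold change -1.65 ± 0.26 SE, FDR = 0.0057). The classic immediate early genes, named for comparison after their values were seen, overlapped between groups for *Fos* (0.17 ± 0.34 SE, FDR = 0.80), *Egr1* (-0.14 ± 0.26 SE, FDR = 0.78) and *Arc* (0.31 ± 0.25 SE, FDR = 0.49). For *Npas4* the groups did not overlap and the level was higher in the mutants (6.66, 5.11 and 3.11 CPM against 8.23, 8.17 and 10.3 CPM), without a call (FDR = 0.059).

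Intracellular signalling genes held DEG in both directions. In G protein and cyclic nucleotide signalling 5 of 101 fell and 2 rose (0 to 11 and 1 to 2 with 1 library left out). The adenylyl cyclases *Adcy9* (72.8, 68.2 and 71.9 CPM to 47.9, 52.5 and 45.9 CPM) and *Adcy5* (179, 174 and 171 CPM to 127, 137 and 140 CPM), the phosphodiesterase *Pde1b*, *Rgs6* and *Rasd1* were downregulated. *Prkcb*, a protein kinase C, and *Plcb1*, a phospholipase C, were upregulated, *Prkcb* from 192, 192 and 195 CPM to 286, 262 and 266 CPM (0.49 ± 0.05 SE, FDR = 0.00050). Regulators of small GTPases had 0 of 122 down and 5 up (0 to 4 and 3 to 12 with 1 library left out), with 21 lower at an unadjusted p below 0.05 and 8 called down by DESeq2. *Ngef*, an exchange factor that acts below EphA4, rose from 10.3, 13.5 and 10.4 CPM to 28.1, 23.8 and 29.5 CPM (1.25 ± 0.13 SE, FDR = 0.00057). *Rapgef3*, *Rnd1*, *Arhgap10* and *Rasgrf1* rose with log2 fold changes between 0.60 and 1.13. Calcium sensors were represented by *Hpca*, which fell (202, 190 and 201 CPM to 121, 150 and 127 CPM), and by *Rcn1* and *Necab2*, which rose, among 41 genes.

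Wnt pathway genes were called at 5 down and 3 up of 70 (2 to 5 and 1 to 9 with 1 library left out). The ligand *Wnt9b* was at 127, 113 and 123.3 CPM in controls and at 36.9, 53.4 and 30.8 CPM in mutants, again with pool B highest among mutants (log2 fold change -1.58 ± 0.16 SE, FDR = 0.00064). The nuclear effector *Lef1* (-0.70 ± 0.12 SE), the planar polarity gene *Vangl1* (-0.93 ± 0.12 SE), and the pathway inhibitors *Nkd1* (-0.57 ± 0.07 SE) and *Dkk4* (-1.52 ± 0.25 SE) fell on the log2 scale. The secreted *Sfrp2* rose from 29.3, 25.5 and 26.1 CPM to 48.7, 44.0 and 44.5 CPM, and *Dact2* (1.27 ± 0.15 SE) and *Dact1* (0.51 ± 0.07 SE), cytoplasmic modulators, rose with it. Secreted inhibitors thus appeared on both sides, *Dkk4* lower and *Sfrp2* higher. *Axin2*, a general target of the pathway, was chosen for comparison after its values were seen and overlapped between the groups (44.9, 50.7 and 44.5 CPM against 60.6, 47.1 and 70.2 CPM, FDR = 0.13).

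Other developmental pathways had few calls. BMP, TGF-beta and activin genes had 1 of 64 (*Id2*), FGF, neurotrophin and receptor tyrosine kinase genes 2 of 89, and Notch and Hedgehog genes 2 of 43, the first 2 at shares of 1.56% and 2.25%, below that of all tested genes. *Ntrk2*, the BDNF receptor, fell (469, 444 and 505 CPM to 335, 376 and 322 CPM, FDR = 0.0053). *Dlk1*, an imprinted gene whose product is a ligand related to those of Notch, was at 81.2, 96.2 and 65.4 CPM in controls and at 24.1, 21.2 and 27.7 CPM in mutants (-1.74 ± 0.14 SE, FDR = 0.00020). In the imprinted class of 36 genes *Cdkn1c* fell and *Plagl1* and *Rasgrf1* rose. *Plagl1* was 12.2, 17.8 and 15.3 CPM in controls and 37.0, 23.1 and 36.5 CPM in mutants, with pool B again nearest to the controls.

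Sugar chains and their enzymes formed another class with DEG. Of 33 genes for heparan sulfate enzymes and core proteins 4 fell and 1 rose (0 to 3 each with 1 library left out). The 6-O-sulfotransferases *Hs6st3* and *Hs6st1* fell from 48.8, 48.0 and 54.0 CPM to 22.2, 26.7 and 16.3 CPM and from 439, 446 and 489 CPM to 292, 340 and 269 CPM. The 3-O-sulfotransferases diverged, since *Hs3st5* fell (-1.01 ± 0.15 SE) and *Hs3st4* rose (0.42 ± 0.06 SE). The core protein *Gpc1*, a glypican, fell slightly (-0.28 ± 0.05 SE, FDR = 0.0085). Among 90 glycosyl- and sialyltransferases 3 fell and 4 rose, and the 3 that fell were the sialyltransferases *St3gal1* (-0.91 ± 0.10 SE), *St3gal4* (-0.53 ± 0.09 SE) and *St6gal2* (-0.44 ± 0.07 SE). *Chst1*, a keratan sulfate sulfotransferase, rose from 141, 122.8 and 140 CPM to 232, 225 and 204 CPM (0.71 ± 0.07 SE, FDR = 0.00046). *Galnt16*, *B4galt6* and *Gyltl1b* were the other 3 that rose.

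Among genes of transmembrane proteins of less known function, *Tmem132b*, *Tmem132c* and *Tmem132d* of 1 family all fell. *Tmem132d* was at 51.3, 51.5 and 59.7 CPM in controls and 9.01, 16.9 and 8.75 CPM in mutants (-2.22 ± 0.22 SE, FDR = 0.00050), and *Tmem132c* was even across the mutant pools at 41.2, 36.3 and 41.5 CPM, against 68.2, 73.3 and 79.1 CPM. *Fam163a* (-1.81 ± 0.23 SE) and *Fam189a1* (-1.16 ± 0.10 SE) fell too, and *Brinp2* rose while *Brinp1*, named after its value was seen, fell. In the whole list of 108 such genes 6 were down and 1 up. Further same-family pairs, found after the values were seen, were *Pcp4* and *Pcp4l1* (-0.89 ± 0.10 and -0.69 ± 0.06 SE), genes of small proteins with an IQ motif, *Nell1* and *Nell2* (-0.42 ± 0.07 and -0.45 ± 0.06 SE), and *Zfp804a* and *Zfp804b* (-0.54 ± 0.09 and -0.75 ± 0.11 SE).

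Extracellular matrix genes had high medians and few DEG in number, but not always in share. The shares called up were 0% of elastic fibre genes, 6.98% of collagens, 2.78% of basement membrane genes and 4.55% of matrix proteoglycans. Of all tested genes 1.22% were called up. The median log2 fold change was 0.65 over 26 elastic fibre genes, 0.57 over 43 collagens, 0.47 over 36 basement membrane genes and 0.46 over 22 matrix proteoglycans, and the number upregulated was 0, 3, 1 and 1. Of the elastic fibre genes 17 were higher at an unadjusted p below 0.05 and DESeq2 called 3. These medians came from mutant pools A and C. For collagens the median log2 ratio to the mean of the controls was 0.63, 0.13 and 0.70 in mutant pools A, B and C, and for elastic fibre genes it was 0.69, 0.09 and 0.85. Without mutant pool B, 20 collagens, 10 elastic fibre genes, 12 basement membrane genes and 4 proteoglycans were called up. *Col1a1*, a fibrillar collagen of meningeal fibroblasts, was at 234, 310 and 338 CPM in controls and at 556, 328 and 682 CPM in mutants, so that pool B lay within the range of the controls (FDR = 0.059). Mutant pools A and C were also those with the high meningeal marker sums given above, and all 14 of these markers had a log2 fold change above 0, with 12 at an unadjusted p below 0.05 and 0 called by edgeR or DESeq2. The part of meningeal tissue in the matrix medians was not tested.

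**Figure D5:**
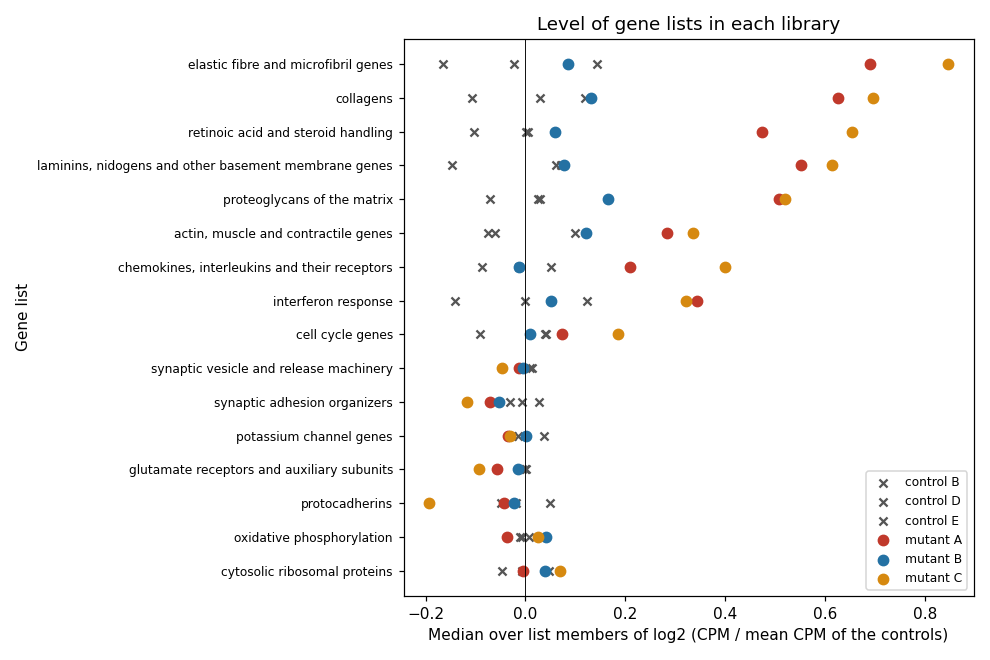
Median over the members of 16 gene lists, picked after their values were seen, of the log2 ratio of the CPM in a library to the mean CPM of the 3 controls (crosses, controls; red, blue and orange points, mutant pools A, B and C). For matrix lists mutant pools A and C lay between 0.51 and 0.85, and mutant pool B between 0.08 and 0.17. Synaptic, channel and housekeeping lists lay between -0.117 (synaptic adhesion organizers) and 0.185 (cell cycle genes), both in mutant pool C.

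In some matrix genes all 3 mutant pools lay above all controls, and the matrix genes named here were picked among the DEG. In either direction, groups did not overlap in 14 of 43 collagens and 6 of 26 elastic fibre genes, against 28.6% of all tested genes. *Col4a3* and *Col4a4*, which encode basement membrane chains from a shared promoter region, rose from 3.12, 1.81 and 1.96 CPM to 5.75, 5.24 and 6.22 CPM and from 2.83, 2.65 and 2.83 CPM to 7.86, 5.81 and 5.89 CPM (log2 fold changes 1.33 ± 0.21 and 1.23 ± 0.16 SE). *Adamts16*, a secreted metalloproteinase, was at 28.7, 25 and 24.4 CPM in the mutants against 3.23, 4.71 and 4.67 CPM in controls. *Spock1*, a proteoglycan of neural tissue, rose from 89.1, 88.7 and 92.5 CPM to 135, 119 and 127 CPM (FDR = 0.0012). *Fmod* was at 4.34, 2.51 and 5.27 CPM in mutants against 0.975, 1.51 and 1.28 CPM in controls, lowest of the mutants in pool B. The downregulated collagen was *Col26a1* (172, 167 and 186 CPM to 119, 132 and 116 CPM, FDR = 0.0018). Among vascular genes, *Angpt2*, a ligand made by endothelial cells, rose from 17.3, 17.1 and 14 CPM to 40.6, 30.4 and 30.5 CPM (named after its values were seen, 1.07 ± 0.13 SE), whereas *Cldn5*, which marks endothelial junctions, did not pass (75.5, 93.3 and 83.1 CPM against 119, 93.7 and 129 CPM, FDR = 0.048).

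Immune classes held shares of DEG near the background. Among 74 genes for chemokines, interleukins and receptors 1 fell and 1 rose (2.70%), and among 46 interferon response genes none was called by edgeR (3 lower and 9 higher at an unadjusted p below 0.05, 0 and 1 called by DESeq2). The list medians were 0.27 and 0.25, with 0.21 and 0.34 in mutant pool A, -0.01 and 0.05 in pool B and 0.40 and 0.32 in pool C. *Cd47*, the signal that protects cells from phagocytosis, fell (97.1, 95.6 and 94.7 CPM to 74.0, 72.2 and 65.3 CPM) and *Tnfrsf1b*, a TNF receptor, rose (4.90, 5.11 and 4.44 CPM to 8.71, 7.50 and 8.07 CPM). Border macrophages, with *Mrc1* at 13.2, 18.3 and 16.2 CPM in controls and 43.7, 21.3 and 48.7 CPM in mutants, followed the same order of pools. Retinoic acid and steroid handling likewise had a median of 0.55 with 1 call (*Rxrg*), at 0.47, 0.06 and 0.65 in mutant pools A, B and C.

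Myelin genes gave opposite calls. *Mbp*, the gene of myelin basic protein, whose locus also makes golli transcripts in neurons, rose from 18.4, 17.2 and 17.4 CPM to 33.6, 31.0 and 31.9 CPM under every setting (log2 fold change 0.87 ± 0.07 SE, FDR = 0.00018). *Mag*, the myelin-associated glycoprotein, fell from 14.9, 14.4 and 13.8 CPM to 6.5, 8.49 and 6.11 CPM (-1.03 ± 0.13 SE, FDR = 0.0018). The other 21 genes of the list were not called, the list median was 0.02, and *Olig1*, a lineage marker, overlapped between groups (FDR = 0.34). The transcript isoform behind the *Mbp* counts was not resolved by the gene table.

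Cell death and stress classes held single calls, 2.56% and 4.55% of their members, against 2.54% of all tested genes. Among 39 cell death and p53 genes *Hrk*, a BH3-only gene of neurons, rose from 126, 116 and 122.7 CPM to 190, 182 and 161 CPM (0.55 ± 0.07 SE, FDR = 0.0016), and 0 fell (7 lower at an unadjusted p below 0.05, 2 called down by DESeq2). *Hspa1b* fell among 22 heat shock and unfolded protein genes (-0.74 ± 0.11 SE). Among 296 solute carriers 6 fell and 2 rose (2.70%), close to the share among all tested genes, with *Slco3a1*, *Slc10a4*, *Slc35f1*, *Slc6a15* and *Slc6a4* among those down and *Slc35f4* and *Slc7a14* up. Of 31 connexins, claudins and tight junction genes edgeR called none, and 4 were lower and 8 higher at an unadjusted p below 0.05 (DESeq2 called 1 and 2).

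In the cytoskeleton 2 of 82 neurofilament, tubulin and microtubule genes fell (*Nefm* and *Dcdc2a*, a doublecortin-domain gene, -0.99 ± 0.15 SE) and 1 rose, the kinesin gene *Kif26b* (1.10 ± 0.16 SE). Of 53 actin, muscle and contractile genes *Nexn* and *Smyd1* fell, both known from striated muscle, and the list median was 0.28. *Smyd1* was at 72.1, 71.8 and 70.5 CPM in controls and at 27.2, 43.0 and 26.6 CPM in mutants, with pool B between. Another 23 of these genes were higher at an unadjusted p below 0.05, DESeq2 called 8 up, and without mutant pool B 10 were called up.

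The most strongly changed DEG included genes outside the lists. *Klhl14*, a member of the Kelch family, and the noncoding *4930426D05Rik*, which overlaps it, rose together, the latter from 1.14, 1.59 and 0.913 CPM to 12.1, 8.32 and 10.5 CPM. Whether reads of this overlapping pair were told apart by strand is not given in the sources used here. *Crispld2*, a secreted protein gene, was even across mutants at 10.8, 11.1 and 11.5 CPM against 2.52, 3.08 and 3.11 CPM. *Zmat4*, *Samd5* and *Adarb1*, an RNA-editing deaminase, fell under every setting, *Adarb1* from 186, 169 and 176 CPM to 88.3, 106 and 93.9 CPM. *Nrep* was the most abundant downregulated gene both in CPM and per transcript length, from 2026, 1975 and 2118 CPM to 1141, 1283 and 1068 CPM. The largest fitted change, that of the near-identical copies *Gm21586* and *Gm20878*, is uncertain, because both were listed at 0 in the mutants and at 0.285 to 0.326 CPM in controls, with the same values.

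The letters near the starts of these genes were inspected for AGGTCA, the hexamer that COUP-TF receptors bind in repeats, in RefSeq promoters of GRCm38.p6 that span 250 bases before to 50 after a start, on both strands. Promoters were found for 152 downregulated and 138 upregulated DEG and for 11835 tested genes. The hexamer was held by 8.55% of the downregulated genes (13 genes), 19.6% of the upregulated genes (27) and 15% of all tested genes, and by 16.3% of all promoters in the table. With only the 250 bases before the start the shares were 7.89%, 18.1% and 13.1%. No DEG held AGGTCA as a direct repeat with 0, 1 or 2 bases between, and 0.0507% of the tested genes held one with 1 base between. The letters mark no binding, which was not measured in these libraries.

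Shown are the promoters of *Mef2c*, which with that of *Slc2a9* had the most such hexamers among DEG, and of *Oxtr* and *Ngef* as upregulated receptor and signalling genes described above. Capitals mark AGGTCA or its complement TGACCT, and the sequences lie at chr13:83573357-83573656 (plus strand), chr6:112489776-112490075 (minus strand) and chr1:87573821-87574120 (minus strand).
Mef2c: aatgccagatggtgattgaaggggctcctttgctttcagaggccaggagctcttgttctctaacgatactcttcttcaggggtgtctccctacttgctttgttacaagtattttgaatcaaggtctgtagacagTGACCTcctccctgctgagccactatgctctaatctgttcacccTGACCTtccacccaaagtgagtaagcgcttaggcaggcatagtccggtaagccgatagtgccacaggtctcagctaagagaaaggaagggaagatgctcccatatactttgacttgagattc
Oxtr: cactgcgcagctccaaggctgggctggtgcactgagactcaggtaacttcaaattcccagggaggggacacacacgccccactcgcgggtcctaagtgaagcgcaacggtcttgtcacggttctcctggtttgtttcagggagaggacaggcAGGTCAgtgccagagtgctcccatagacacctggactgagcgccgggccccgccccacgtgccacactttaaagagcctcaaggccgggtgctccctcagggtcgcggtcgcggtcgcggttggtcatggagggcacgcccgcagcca
Ngef: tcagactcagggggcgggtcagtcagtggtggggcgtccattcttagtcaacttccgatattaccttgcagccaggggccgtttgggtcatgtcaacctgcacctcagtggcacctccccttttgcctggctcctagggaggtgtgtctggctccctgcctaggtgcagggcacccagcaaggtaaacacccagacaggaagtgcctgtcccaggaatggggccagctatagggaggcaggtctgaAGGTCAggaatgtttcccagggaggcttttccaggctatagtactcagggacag
In *Mef2c* the hexamers begin 116 and 72 bases before the start of this transcript, in *Oxtr* 98 bases and in *Ngef* 4 bases before it. *Mef2c* fell in all mutant pools, whereas *Oxtr* and *Ngef* rose in all of them.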

How the data were processed

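RNA-seq libraries of dLGN from P0 pups, 3 mutant and 3 control pools of the *Nr2f1* line, were used, and the table of the *Sox2* line was not used here. Read pairs were mapped by the authors with STAR to RefSeq transcripts of the mouse (build mm10 in the submitters' processing notes), and RSEM gave the expected counts per gene that they deposited without normalization. As 7.62% of these were fractional, rounding preceded every test. Reads that match several transcripts were already divided by that estimation, which can blur near-identical genes. Columns name the group and a letter but not the numbers of the labels, so libraries are called pools A to E. Controls were littermates of the mutants, but pools were not tied to a litter or a dissection here, so p-values measure the spread between pools.

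Mutants were compared with controls, without a covariate, by edgeR 4.0.16 (R 4.3.3), using its quasi-likelihood F-test. Low counts were removed by filterByExpr (at least 10 counts, and 15 in total), and libraries were scaled by TMM. DEG had a Benjamini-Hochberg FDR below 0.01, the paper's threshold. SE is the log2 fold change divided by the root of its F. The smallest two-sided p of an exact permutation test on 3 pools per group is 0.1. Depth was 39293465 to 50095344 counts per library, and the median SE was 0.095 on the log2 scale. On simulated counts of 15600 genes, 75 of 100 genes changed by 1 and 94 of 100 changed by 2 on the log2 scale were called, with 3 calls among unchanged genes.

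The 58 gene lists, the 20 marker lists and the members were chosen with earlier results of these data known, and lists are described by counts and medians without a test. Named genes were *Nr2f1* and *Rora*, in each list up to 5 DEG per direction by smallest p (or the member with the smallest p where none was called), the 20 DEG per direction with the smallest p, the 15 per direction with the largest change at a mean of at least 1 CPM in the higher group, and of each marker list the DEG and the first gene. Genes outside this rule, such as those given for comparison (*Nr2f2*, *Gria2*, *Gria3*, *Abcc9*, *Cacna1h*, *Nefl*, *Nefh*, *Fos*, *Egr1*, *Arc*, *Npas4*, *Axin2*, *Ache* and *Angpt2*), were chosen after their values were seen. Transcript lengths were taken from GENCODE vM21 (97.1% of tested symbols matched), positions from RefSeq GRCm38.p6 (96.4%). The values of some genes are not reported here.

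Alternatives were upper quartile normalization, DESeq2 1.42.0, the likelihood ratio test, legacy=FALSE, no filter, CPM above 1 in 2 libraries, FDR below 0.05, covariates made from the mean level of male-specific or meningeal genes, and leaving out each library.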

Additional observations from a re-analysis of the deposited data

How the results depend on the processing

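The number of downregulated and upregulated DEG (206 and 190) was within 1.5 times of these with upper quartile normalization, legacy=FALSE, no filter and CPM above 1 in 2 libraries. DESeq2 gave 567 and 545, the likelihood ratio test 501 and 588, and an FDR below 0.05 gave 584 and 570. With male-specific genes as a covariate it was 32 and 52, and with meningeal genes as a covariate 39 and 43. Each of these fits has 1 residual degree of freedom less, meningeal genes were highest in mutant pools A and C, and male-specific genes were at 0 in mutant pool A. The cause was not tested. Leaving out 1 library gave 61 to 351 downregulated and 72 to 517 upregulated DEG. Each of the 6 moved both numbers by more than 1.5 times. Without control pool B they were 62 and 82, without D 79 and 90, without E 92 and 87, without mutant pool A 61 and 72, without B 351 and 517, and without C 110 and 116. None of the 396 DEG changed direction in any of these fits (394 of them were tested with CPM above 1 in 2 libraries). Of the genes named by the rule 203 were called, and 198 of them were called without mutant pool B, 88 without control pool B, 63 with the male-specific covariate and 65 with the meningeal covariate.

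Direction changed for genes without a call, at log2 fold changes near 0. With the meningeal covariate these were *Gad1* (-0.0723), *Nkx2-2* (-0.0785), *Pdgfrb* (-0.0996), *Rbfox3* (0.0447), *Slc17a6* (0.115) and *Slc17a7* (0.0833), and with the male-specific covariate *Ddx3y* (0.147), *P2ry12* (0.0917) and *Rbfox3* (0.0148). Upper quartile normalization gave 0.004 for *Rbfox3*. Leaving out 1 library gave -0.213 to 0.104 for *Hba-a1*, -0.183 to 0.0607 for *P2ry12*, -0.0476 to 0.0128 for *Rbfox3* and -0.135 to 0.0479 for *Slc17a6*.

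No paired analysis was possible because the columns carry letters that do not match the replicate numbers of the labels, and mutants and controls share only the letter B. In simulated counts for this comparison, genes changed by 1 on the log2 scale were recovered less often than those changed by 2 (75 and 94 of 100). Upper quartile scaling moved the median log2 fold change of all genes from 0.01 to 0.03.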
